A study of Mus musculus with 8 samples.

Results

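The collagens and dermal matrix genes are 46 genes listed by symbol that encode the fibres of the dermis, the proteins that organise them and the enzymes that process or cleave them. Members were the probe sets of the array, 1 a gene, whose only gene symbol in the array's annotation is on that list, and 41 of the 46 had one among 22206 probe sets that are not controls. No probe set of that symbol stood for Col7a1, Col12a1, Fbn1, Loxl2 or Pdgfra, which were not analysed here. The list was drawn up by gene function, with earlier results of these data known.

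The RNA came from dorsal skin of male C3H mice and was measured on 8 Clariom S Mouse arrays, a microarray on which each gene is read by a set of probes. The mice were 7 weeks old at the start, had 7 days to settle, were assigned at random to groups of 8 and lost the hair of the back to clipping and a depilatory cream, in the controls as in the treated groups. They then received a topical treatment each day for 20 days. The 4 groups, of 2 arrays each, were control (Milli-Q water), minoxidil, a drug used against hair loss, tieghemelin, a plant saponin, and maslinic acid, a plant triterpene. Each agent was given at 1%, although 1 label of minoxidil array 2 gives 2%. The control arrays' titles name them as controls for tieghemelin and maslinic acid. No label ties an array to a mouse or says whether mice were pooled, so the p-values measure only the spread between arrays, which may be technical. In whole skin, fewer cells of a type and less RNA per cell cannot be told apart.

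Fibrillar collagens I, III and V form the load-bearing fibres of the dermis, and they are made as precursors that are folded, trimmed, secreted and crosslinked by dedicated proteins. Small leucine-rich proteoglycans such as decorin and lumican bind the fibrils and set their width and spacing. Fibrillins, fibulins, microfibril-associated proteins and elastin make up the elastic fibres, and matrix metalloproteinases and their tissue inhibitors govern turnover. The mouse dermis, the fat beneath it and its thin panniculus muscle lie close together, and the makeup of dermis and fat follows the hair cycle.

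Promoter sequences are shown for 6 members on which the comparisons turn. Fmod, Col6a1 and Serpinh1 met the study's thresholds with all arrays, and Col3a1, Sparc and Timp2 met them once control array 1 was left out. Each is the 100 bases before the gene's RefSeq start on GRCm38.p6, 5′ to 3′ on the gene's strand, in a window that overlaps no other RefSeq gene. Capitals mark a match to a motif searched on both strands, here the GC box GGGCGG or the AP-1 core TGANTCA. Col3a1 (collagen III) lies at chr1:45311438-45311537 on the plus strand, Sparc at chr11:55420081-55420180 on the minus strand and Timp2 at chr11:118355412-118355511 on the minus strand. Fmod (fibromodulin) lies at chr1:134037154-134037253 on the plus strand, Col6a1 at chr10:76726045-76726144 on the minus strand and Serpinh1 at chr7:99353240-99353339 on the minus strand.
Col3a1: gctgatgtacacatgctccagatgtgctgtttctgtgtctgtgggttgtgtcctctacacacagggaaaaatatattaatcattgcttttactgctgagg
Sparc: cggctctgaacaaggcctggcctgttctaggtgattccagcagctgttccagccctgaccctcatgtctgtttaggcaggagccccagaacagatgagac
Timp2: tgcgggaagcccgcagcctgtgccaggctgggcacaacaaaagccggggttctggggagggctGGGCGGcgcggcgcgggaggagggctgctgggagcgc
Fmod: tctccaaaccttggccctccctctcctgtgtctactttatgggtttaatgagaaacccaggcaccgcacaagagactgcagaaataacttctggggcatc
Col6a1: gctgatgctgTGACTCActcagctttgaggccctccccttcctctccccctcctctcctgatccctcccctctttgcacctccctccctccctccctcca
Serpinh1: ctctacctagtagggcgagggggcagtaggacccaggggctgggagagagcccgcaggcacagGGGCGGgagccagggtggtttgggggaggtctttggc

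The RefSeq table held a promoter for 30 of the 46 listed genes. The GC box lay in 15 of those 30 (50%), against 25.2% of 27025 promoters of the same length. The AP-1 core lay in 2 of 30, Mmp3 and Col6a1, against 2.7% of all promoters, and the TATA box TATAAA lay in 1, Mmp3, against 5.95%. The CCAAT box, searched by those letters, lay in 2 of 30, Col4a2 and Mmp14, against 19.6%. The promoters of Col3a1, Sparc and Fmod held none of the 4 motifs, which says only that these letters are not in these windows.

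Control array 1 stood apart from the others over all probe sets, at a correlation across probe sets of 0.518 to 0.538 with each of them, while the other 7 arrays correlated at 0.901 to 0.966 among themselves. The spiked-in hybridisation controls bioB and cre read 4.48 and 6.25 (log2) on it, against 8.29 to 8.92 and 12.45 to 12.81 on the other 7 arrays. The main counts and medians against control are therefore also given without each control array, and single genes where a call or a direction turns on one. Markers of the labelled tissue were read against background. On each array 5 to 9 of 10 basal and 7 to 10 of 11 differentiated keratinocyte markers were above it. Of 17 fibroblast markers outside the list, 9 to 11 were. Over all probe sets the share above it was 56.9% to 80.3% by array. Such counts therefore do not test the tissue label. All 25 skeletal muscle markers were lower in each treated group than in control, and their median level on each array is given below.

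Values are log2 units of the deposited table, in which 1 unit is a doubling, and background is the median of 23 antigenomic probe sets, whose sequences are absent from the genome. Background was higher on the control arrays (7.75 and 7.61) than on the 4 tieghemelin and maslinic acid arrays (6.96 to 7.08), with minoxidil between (7.51 and 7.33). The count of members brighter than background, out of 41, was 25 for control array 1, 22 for control array 2 and at most 31 with treatment, for tieghemelin array 2. A rise from control to this treated array was also seen over all probe sets, of which 56.9%, 62.4% and 80.3% in that order exceeded background. Above it on all 8 arrays were 14 members, Col1a2, Col5a2, Col16a1, Col4a1, Col6a2, Col6a3, Mfap4, Eln, Fbln2, Lum, Ogn, Mmp2, Mmp3 and Timp2. On none of the arrays above it were 5, Col5a1, Bgn, Loxl1, Timp1 and Timp3, and 22 were above it on some arrays.

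**Figure D1:**
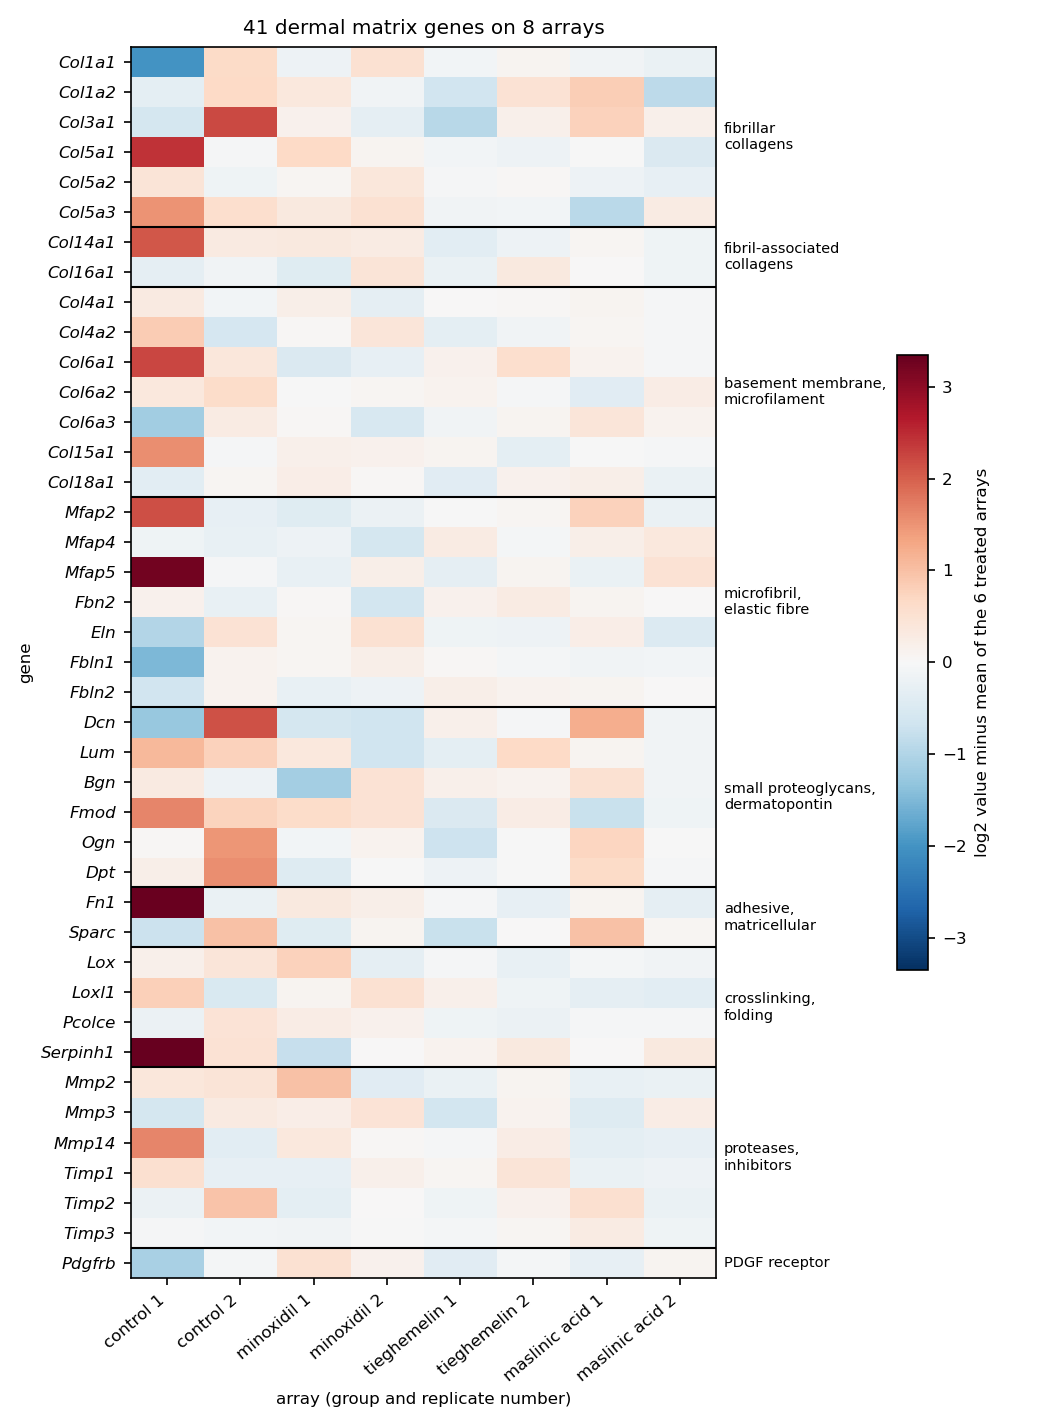
Deposited log2 level of each of the 41 members on the 8 arrays, drawn as the difference from that member's mean over the 6 treated arrays, with members ordered by class. Control array 1 is the highest array for 17 members and the lowest for 8, whereas each of the 6 treated arrays is the highest for 1 to 5.

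The spread between arrays set what could be compared. The gap between the 2 arrays of a group had a median over members of 1.16 in control, with 21 of 41 members over 1 log2 unit, and of 0.37 with minoxidil, 0.21 with tieghemelin and 0.31 with maslinic acid. Over all probe sets the same medians were 0.89, 0.39, 0.29 and 0.31. The widest gaps within control were those of Fn1 (3.55), Dcn (3.39), Mfap5 (3.30), Serpinh1 (2.88) and Col3a1 (2.81). In a limma fit of all 8 arrays, the 95% interval of a member's difference between groups reached 0.80 to 2.22 log2 units to either side, with a median of 1.16. That fit takes 1 spread for all groups of a gene. Where the control arrays lie further apart than the treated ones, its SEs, intervals and p-values against control understate the uncertainty. For Col1a1 the SD was 1.88 in control, 0.48 with minoxidil, 0.13 with tieghemelin and 0.07 with maslinic acid.

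In each treated group more members lay below the control mean than above it, but few changed beyond the spread between arrays. Of the 41 members, 27 lay below control with minoxidil (65.9%, against 46.7% of all probe sets), 28 with tieghemelin (68.3%, against 47.6%) and 26 with maslinic acid (63.4%, against 47.3%). The median log2 difference from control over the members was -0.22, -0.38 and -0.33 in the same order, against 0.06, 0.05 and 0.05 over all probe sets. All 3 comparisons share the control arrays, so they are not independent. Against control array 2 alone the medians were -0.13, -0.18 and -0.23, and against control array 1 alone -0.24, -0.29 and -0.11. The difference changed sign with the control array used for 23 members with minoxidil, 22 with tieghemelin and 27 with maslinic acid. It was below 0 against either control array for 13, 14 and 11 members, and above 0 against either for 5, 5 and 3.

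At the thresholds of the series' design text (a 1.7-fold change or more, with a p not above 0.05 before adjustment, here from limma's moderated test), 2 of the 41 members were called in each comparison with control, all lower. This is 4.88% of the members, against 11.3% of all probe sets with minoxidil, 11.7% with tieghemelin and 10.8% with maslinic acid. After Benjamini-Hochberg adjustment over all probe sets, limma called 0 members and 0% of all probe sets in each of these comparisons. At an unadjusted p under 0.05 it counted 2 members in each, and 2502, 2609 and 2409 probe sets. The members called were Col6a1 and Serpinh1 with minoxidil, Col14a1 and Fmod with tieghemelin, and Col5a3 and Fmod with maslinic acid.

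Leaving out control array 1 replaced nearly all of these calls by others. The lone control array is then assumed to vary like the arrays of the other groups. With minoxidil 6 members were then called lower (6.38% of all probe sets) and 1 higher (6.53%), with tieghemelin 6 lower (7.12%) and 0 higher (6.63%), and with maslinic acid 5 lower (6.57%) and 0 higher (6.21%). Lower in all 3 comparisons, against this 1 shared control array, were Col3a1, Dcn, Ogn and Dpt; Sparc and Timp2 were called lower with minoxidil and tieghemelin, and Fmod with maslinic acid. At an adjusted p under 0.05, limma then called 0 members in each comparison, against 0.00450% of all probe sets with minoxidil, 0.356% with tieghemelin and 0.00450% with maslinic acid. The counts at the thresholds, 7, 6 and 5 members, all had an unadjusted p under 0.05. Leaving out control array 2 instead gave 17, 18 and 19 members at the thresholds, against 47.3%, 47.5% and 47.3% of all probe sets, and 13, 15 and 16 members at an adjusted p under 0.05, against 37.7%, 37.9% and 37.3%. Such a fit rests on 1 control array, and its counts are not read as a result about the members.

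**Figure D2:**
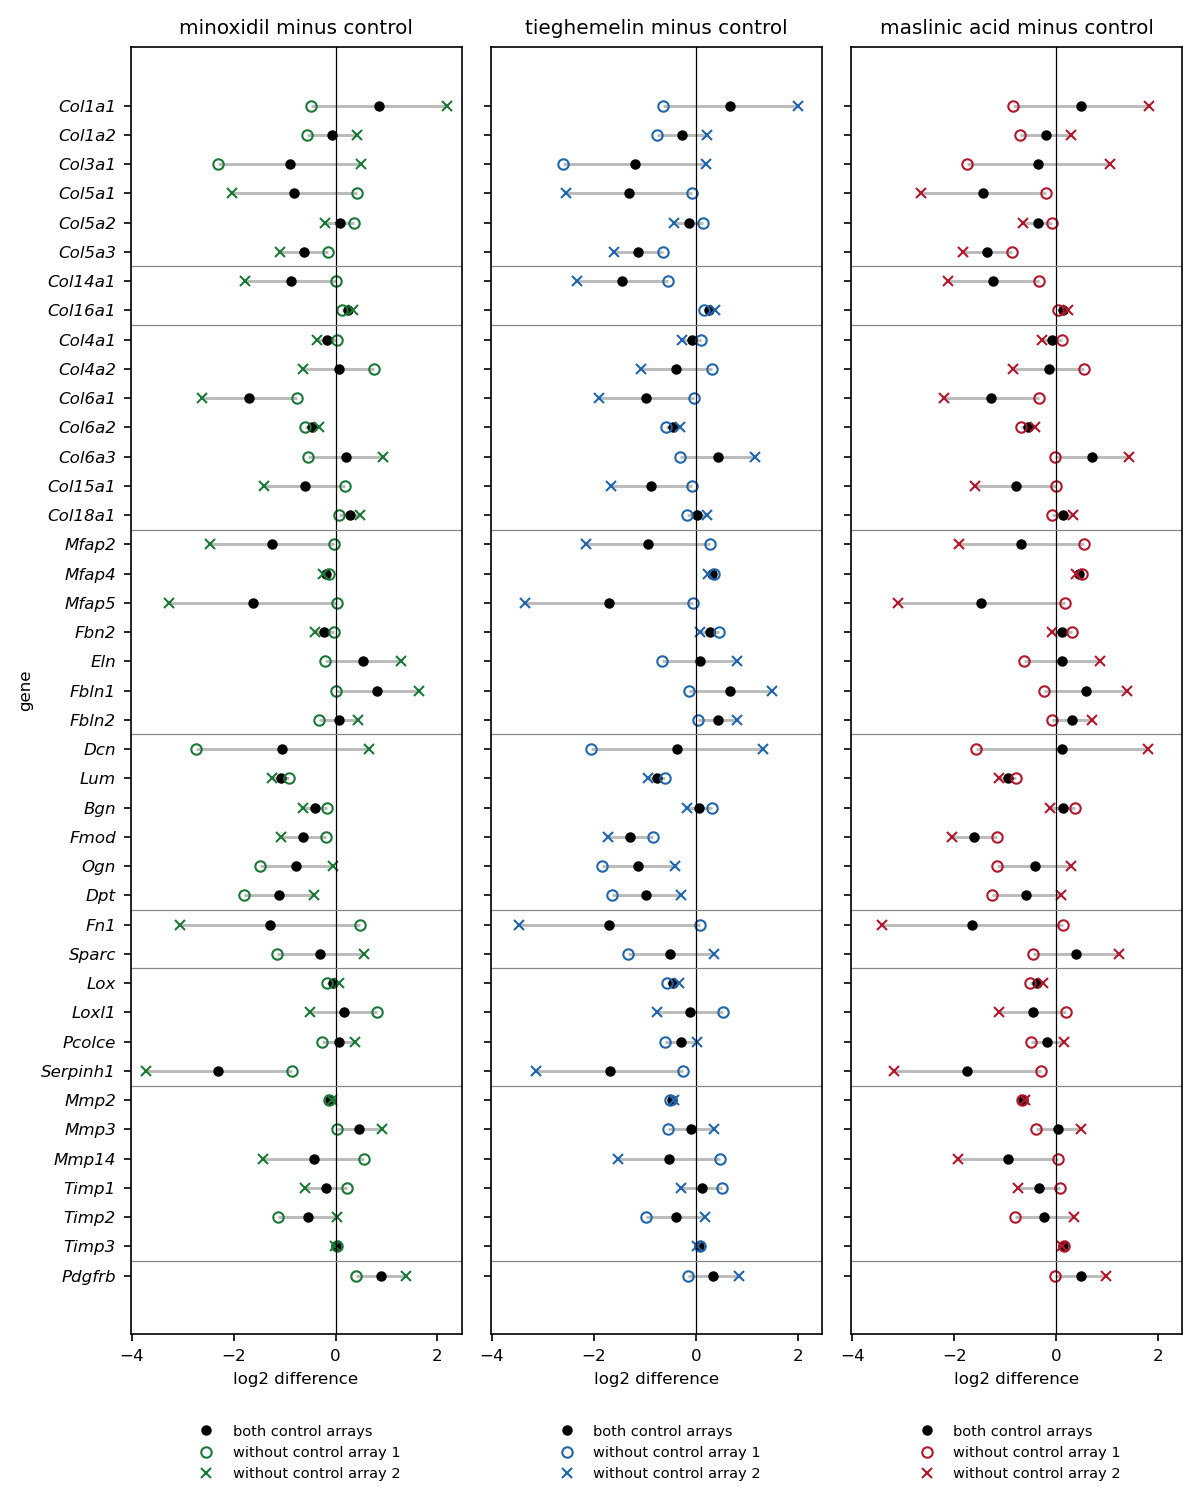
Log2 difference of each member from control in the 3 treated groups, with all 8 arrays, without control array 1 and without control array 2. The 2 settings that keep 1 control array lie on opposite sides of 0 for 23, 22 and 27 of the 41 members with minoxidil, tieghemelin and maslinic acid.

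Among the fibrillar collagens, both control arrays held the extreme values of Col1a1, the main chain of collagen I. It read 7.64 and 10.30 on control arrays 1 and 2, 9.48 and 10.16 with minoxidil, 9.56 and 9.74 with tieghemelin, and 9.52 and 9.42 on the maslinic acid arrays. All 6 treated arrays lay between the control arrays, within 0.75 log2 units of each other. The difference from control was 0.85 (SE 0.76), 0.68 (SE 0.76) and 0.49 (SE 0.76) in that order, with limma adjusted p of 0.618, 0.686 and 0.776. It was -0.48, -0.65 and -0.84 against control array 2 alone, and against control array 1 alone 2.18, 2.01 and 1.83, so its direction turned with the control array.

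Col3a1, the chain of collagen III, which is mixed with collagen I in dermal fibrils, read 7.45 and 10.27 in control. It read 8.19 and 7.74 with minoxidil, 7.11 and 8.21 with tieghemelin, and 8.81 and 8.21 on the maslinic acid arrays. Control array 2 was above all other arrays, and control array 1 lay within the range of the treated ones. The difference from both controls was -0.89, -1.20 and -0.35 (SE 0.84 each), with limma adjusted p of 0.634, 0.530 and 0.863. Against control array 2 alone it was -2.30, -2.61 and -1.75 (SE 0.49 each), with limma adjusted p of 0.133, 0.0635 and 0.189. Against control array 1 alone it was 0.51, 0.20 and 1.06, so the direction depends on which control array is kept.

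Skeletal muscle markers were also highest on control array 2. Their median level over 25 markers was 11.21 and 13.58 in control, 10.46 and 10.31 with minoxidil, 9.03 and 8.75 with tieghemelin, and 11.20 and 9.05 on the maslinic acid arrays. Against both controls 12, 19 and 14 of the 25 were called lower, with a median log2 difference of -2.03, -3.23 and -2.0, and none higher. With control array 2 alone 23, 24 and 24 were called lower, at medians of -3.06, -4.16 and -3.18. With control array 1 alone 7, 16 and 10 were, at medians of -0.99, -2.22 and -1.02, and 7, 1 and 7 markers then lay above control. The share of muscle RNA in the differences of Col3a1, Dcn, Ogn and Dpt was not tested.

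Col5a1, a chain of the collagen V that initiates fibrils, read 7.60 and 5.14 in control, 5.86 and 5.27 with minoxidil, 5.10 and 5.02 with tieghemelin, and 5.17 and 4.71 on the maslinic acid arrays, and was above background on none of them. Col5a2, the chain that pairs with it, read 9.48 and 8.90 in control, 9.11 and 9.43 with minoxidil, 9.01 and 9.09 with tieghemelin, and 8.88 and 8.78 on the maslinic acid arrays. Its values thus covered less than 1 log2 unit on all arrays. Col5a3, a minor chain of collagen V, read 8.88 and 7.93 in control, 7.70 and 7.88 with minoxidil, 7.27 and 7.29 with tieghemelin, and 6.46 and 7.65 on the maslinic acid arrays. Both control arrays were above all 6 treated ones. It met the study's thresholds with maslinic acid, at -1.35 (SE 0.50, limma adjusted p = 0.448), and stood at -1.13 (SE 0.50, limma adjusted p = 0.431) with tieghemelin. The first call was lost without control array 1, at -0.87 (SE 0.47), and without maslinic acid array 1. As a class, 4 of 6 fibrillar collagens were lower than control with minoxidil, 5 with tieghemelin and 5 with maslinic acid, and the medians were -0.34, -0.70 and -0.35. The class medians were -0.31, -0.65 and -0.77 against control array 2 alone, and against control array 1 alone 0.11, -0.11 and -0.18, with 3 of 6 lower in each comparison.

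Of the collagens that coat fibrils, Col16a1 was above background throughout at 10.05 to 10.88, with both control arrays (10.13 and 10.33) inside that range. Col14a1, the chain of collagen XIV, which binds fibril surfaces, read 9.37 and 7.59 in control, 7.63 and 7.57 with minoxidil, 6.95 and 7.12 with tieghemelin, and 7.35 and 7.15 on the maslinic acid arrays. Control array 1 was the only array above 7.63. The call with tieghemelin was -1.44 (SE 0.56, limma adjusted p = 0.418). The call was lost with any 1 array left out except control array 2, which was itself just under background.

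The basement membrane and microfilament collagens included a member with little spread on any array. Col4a1, the most widespread chain of the basement membrane collagen IV, read 9.11 and 8.72 in control, 8.99 and 8.51 with minoxidil, 8.83 and 8.84 with tieghemelin, and 8.91 and 8.76 on the maslinic acid arrays. Its differences from control were -0.16, -0.08 and -0.08 (SE 0.36 each), and the interval with tieghemelin ran from -0.92 to 0.76. Col6a1, a chain of the beaded microfilaments of collagen VI, read 9.21 and 7.34 in control, 6.48 and 6.69 with minoxidil, 7.10 and 7.52 with tieghemelin, and 7.09 and 6.93 on the maslinic acid arrays. Both minoxidil arrays were the lowest of the 8, and neither was above background. The measured difference with minoxidil was -1.69 (SE 0.58, limma adjusted p = 0.440), or at least 1.81-fold lower. Such a bound sets the brighter group's mean against the background of each dim array. It carries no SE, and where 1 array of the brighter group is itself below background it rests on the other array. The call was lost without control array 1, when control array 2 and both minoxidil arrays were all below background, and without either minoxidil array.

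Of the other chains of collagen VI, Col6a3 went the other way from Col6a1 on control array 1. Col6a3 read 8.11 and 9.57 in control and 8.75 to 9.70 on the treated arrays, so control array 1 was the lowest array. Col6a2 read 8.36 and 8.64 in control and 7.64 to 8.27 with treatment. Both control arrays were above every treated array for Col6a2, at differences of -0.46, -0.45 and -0.55 (SE 0.37 each), and limma adjusted p from 0.543 to 0.592. Over the 7 collagens of this class, 4, 5 and 5 were lower than control with minoxidil, tieghemelin and maslinic acid, at medians of -0.16, -0.38 and -0.14. Those medians were 0.03, -0.08 and -0.02 against control array 2 alone and -0.36, -0.31 and -0.41 against control array 1 alone.

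**Figure D3:**
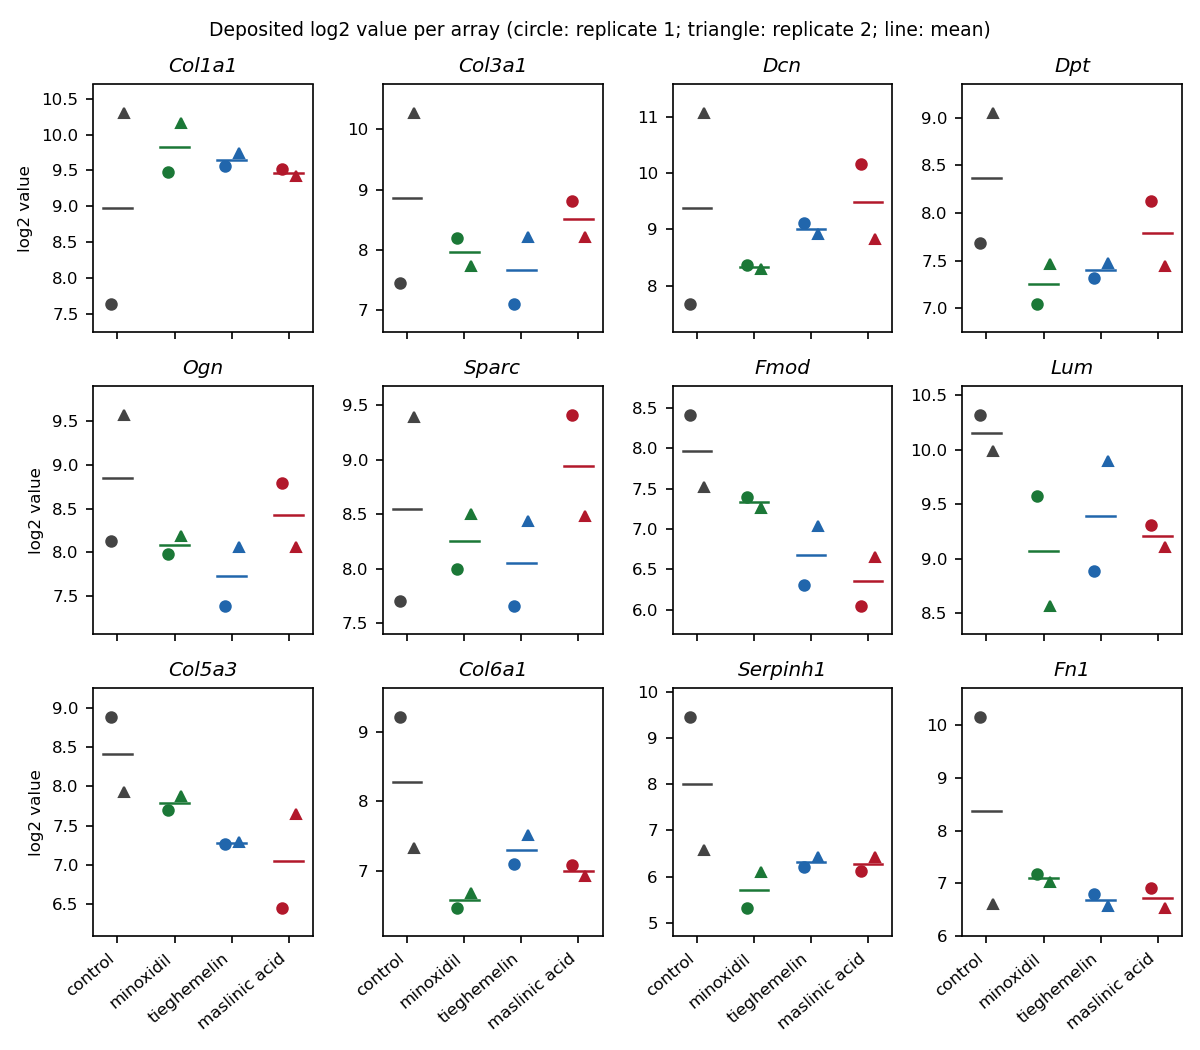
Deposited log2 level of selected members on each of the 8 arrays by group, with the 2 arrays of a group as points. Col3a1 and Dcn are highest on control array 2, at 10.27 and 11.07. Fmod is higher on both control arrays (8.41 and 7.52) than on all 6 treated ones (6.05 to 7.40).

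Genes of the microfibrils and elastic fibres showed no call with all arrays. Eln, elastin itself, was above background on every array and read 9.06 and 10.54 in control, 10.12 and 10.55 with minoxidil, 9.89 and 9.87 with tieghemelin, and 10.26 and 9.58 on the maslinic acid arrays. Control array 1 was again the lowest, and the differences were 0.54, 0.08 and 0.12 (SE 0.53 each). They were -0.21, -0.66 and -0.62 against control array 2 alone, and against control array 1 alone 1.28, 0.82 and 0.87. Mfap5, a microfibril-associated protein, read 9.94 and 6.65 in control, 6.46 and 6.89 with minoxidil, 6.40 and 6.80 with tieghemelin, and 6.47 and 7.19 on the maslinic acid arrays. Only control array 1 and maslinic acid array 2 were above background. The control mean was at least 1.83-fold above the minoxidil arrays and at least 2.46-fold above the tieghemelin arrays, with no call, and control array 2 lay within the range of the treated arrays.

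Mfap4, an elastic fibre protein that binds collagen, kept the direction of each difference from control whichever control array was used. It read 8.39 and 8.28 in control, 8.37 and 7.93 with minoxidil, 8.81 and 8.47 with tieghemelin, and 8.72 and 8.87 on the maslinic acid arrays. Tieghemelin and maslinic acid arrays were above both controls and both minoxidil arrays, at 0.31 and 0.46 (SE 0.36 each, limma adjusted p = 0.700 and 0.582) against control, while minoxidil stood at -0.18. Fbln2, a fibulin, did the same against minoxidil, with 8.87 and 8.81 with tieghemelin and 8.76 and 8.70 on the maslinic acid arrays against 8.43 and 8.51. Neither gene met the thresholds with all arrays. Against control array 1 alone Fbln2 met them with tieghemelin, at 0.81 (limma adjusted p = 0.0845), and against control array 2 alone it stood at 0.04. The class median was -0.18 with minoxidil, where 4 of 7 were lower, and 0.28 and 0.12 with tieghemelin and maslinic acid, where 2 of 7 were. It was -0.03, 0.04 and 0.18 against control array 2 alone, and against control array 1 alone -0.24, 0.25 and 0.40.

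With both control arrays, the small proteoglycans and dermatopontin held the lowest class medians among classes of over 2 genes. These were -0.91 with minoxidil, -0.86 with tieghemelin and -0.50 with maslinic acid. All 6 were lower than control with minoxidil, 5 with tieghemelin and 4 with maslinic acid. The class includes Bgn, below background on every array, and Fmod, below it on both minoxidil and both maslinic acid arrays. Without control array 1 the medians were -1.20, -1.25 and -1.15, and without control array 2 they were -0.54, -0.35 and 0.00. In that last setting the crosslinking, folding and processing class was lower with tieghemelin (-0.54) and maslinic acid (-0.69).

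Dcn, decorin, which binds collagen fibrils and growth factors, spanned the widest range of the class. It read 7.68 and 11.07 in control, 8.37 and 8.29 with minoxidil, 9.11 and 8.92 with tieghemelin, and 10.16 and 8.83 on the maslinic acid arrays. The control arrays were the lowest and the highest of the 8. The differences from both were -1.05, -0.36 and 0.12 (SE 0.96 each), with limma adjusted p of 0.628, 0.874 and 0.963. Against control array 2 alone they were -2.74, -2.06 and -1.57 (SE 0.50 each), with limma adjusted p of 0.107, 0.125 and 0.229, and against control array 1 alone 0.65, 1.33 and 1.81.

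Ogn, osteoglycin, read 8.13 and 9.57 in control, 7.98 and 8.19 with minoxidil, 7.39 and 8.06 with tieghemelin, and 8.79 and 8.06 on the maslinic acid arrays. Dpt, dermatopontin, which links decorin and collagen, read 7.69 and 9.05 in control, 7.05 and 7.47 with minoxidil, 7.32 and 7.48 with tieghemelin, and 8.13 and 7.45 on the maslinic acid arrays. For both genes control array 2 was the highest of all arrays, and maslinic acid array 1 was the highest of the treated ones. Against both controls the largest difference of Dpt was -1.11 (SE 0.51, limma adjusted p = 0.443) with minoxidil, and that of Ogn -1.13 (SE 0.55, limma adjusted p = 0.444) with tieghemelin. With control array 2 alone, Dpt was at -1.79, -1.65 and -1.25 and Ogn at -1.49, -1.85 and -1.15, all at the study's thresholds. Neither gene was called against control array 1 alone: Dpt stood at -0.43, -0.29 and 0.10 and Ogn at -0.04, -0.41 and 0.30.

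Lum, lumican, was among the 5 members for which both control arrays lay above all 6 treated arrays. It read 10.32 and 9.99 in control, 9.58 and 8.57 with minoxidil, 8.89 and 9.90 with tieghemelin, and 9.31 and 9.11 on the maslinic acid arrays. The differences were -1.08, -0.76 and -0.95 (SE 0.49 each), with limma adjusted p of 0.443, 0.504 and 0.482. The differences of Lum were -0.92, -0.60 and -0.78 without control array 1 and -1.25, -0.93 and -1.11 without control array 2.

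Fmod, fibromodulin, which acts on collagen crosslinking, was the single member called with both control arrays that was also called with either left out. It read 8.41 and 7.52 in control, 7.40 and 7.26 with minoxidil, 6.31 and 7.04 with tieghemelin, and 6.05 and 6.65 on the maslinic acid arrays. Control array 1 and tieghemelin array 2 were the only arrays above background. With maslinic acid the difference was -1.61 (SE 0.46, limma adjusted p = 0.448), or at least 1.92-fold lower. Without control array 1 the call held (limma adjusted p = 0.286), but control array 2 and both maslinic acid arrays were below background, and the call was lost without maslinic acid array 1. With tieghemelin it was -1.29 (SE 0.46, limma adjusted p = 0.414), a call lost without control array 1 or tieghemelin array 1.

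The 5 members with both control arrays above all treated arrays were Col5a3, Col6a2, Lum, Fmod and Serpinh1, 12.2% of the members against 6.93% of all probe sets. The reverse held for 0 members and 9.15% of all probe sets. Against each group alone, the arrays did not overlap and the treated ones were lower for 7 members with minoxidil (15.6% of all probe sets), 11 with tieghemelin (18.4%) and 10 with maslinic acid (17.9%). The treated arrays were higher for 1 member with minoxidil, Pdgfrb (20.6%), 3 with tieghemelin (22.2%) and 1 with maslinic acid, Mfap4 (20.8%).

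The adhesive and matricellular glycoproteins moved apart on the control arrays. Fn1, fibronectin, read 10.15 and 6.60 in control, 7.17 and 7.02 with minoxidil, 6.79 and 6.57 with tieghemelin, and 6.92 and 6.54 on the maslinic acid arrays. Control array 1 alone was above background. Sparc, a collagen-binding glycoprotein, read 7.70 and 9.39 in control, 8.00 and 8.50 with minoxidil, 7.66 and 8.44 with tieghemelin, and 9.41 and 8.48 on the maslinic acid arrays. Here control array 2 and maslinic acid array 1 stood at the top together. Against control array 2 alone, Sparc was at -1.14 (limma adjusted p = 0.362) with minoxidil and -1.34 (limma adjusted p = 0.268) with tieghemelin, both at the study's thresholds, and at -0.45 (limma adjusted p = 0.753) with maslinic acid. Against control array 1 alone, itself just under background for this gene, it was on the other side, at 0.55, 0.35 and 1.24, and the last met the thresholds (limma adjusted p = 0.0691).

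That pairing of control array 2 with maslinic acid array 1 was also seen in 2 genes outside the list, chosen after their values were seen. Postn, periostin, a matricellular protein, read 11.10 on control array 2 and 11.63 on maslinic acid array 1, against 8.89 to 9.26 on the other 6 arrays. Fabp4, a fatty acid binding protein of adipocytes, read 14.29 and 15.17 on them, against 10.56 to 11.37 on the other 6. Its list as a whole did not share this. The median over 13 adipocyte markers was 7.71 on control array 2 and 7.95 on maslinic acid array 1. On the other arrays it ran from 7.54 to 8.30. The list of Postn did not share it either. Its median over 39 matrix genes was 8.00 and 7.94 on those 2 arrays, and 7.82 to 8.01 on the others. The part of fat or muscle RNA in these values was not tested.

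Among the genes for crosslinking, folding and processing, most values were near background. Serpinh1, the collagen chaperone Hsp47, read 9.45 and 6.57 in control, 5.33 and 6.10 with minoxidil, 6.21 and 6.42 with tieghemelin, and 6.11 and 6.42 on the maslinic acid arrays. Control array 1 was the only array above background. The measured difference with minoxidil was -2.30 (SE 0.82, limma adjusted p = 0.440), or at least 1.50-fold lower. The call was lost without control array 1 and without minoxidil array 1. Lox, the founding lysyl oxidase that starts crosslinks, read 7.13 and 7.38 in control, 7.73 and 6.67 with minoxidil, 6.92 and 6.71 with tieghemelin, and 6.91 and 6.84 on the maslinic acid arrays. Only minoxidil array 1 was above background, so no difference is given. Loxl1, a lysyl oxidase relative, read 7.51 and 6.19 in control, 6.80 and 7.23 with minoxidil, 6.89 and 6.58 with tieghemelin, and 6.41 and 6.37 on the maslinic acid arrays. It was below background on all of them, and was the 1 member called higher with minoxidil without control array 1. Pcolce, an enhancer of procollagen trimming, read 7.31 and 7.95 in control and 7.31 to 7.74 with treatment.

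The matrix degrading enzymes and their inhibitors showed no call with all arrays. Mmp2, a gelatinase made by fibroblasts, read 8.27 and 8.33 in control, 8.87 and 7.53 with minoxidil, 7.67 and 8.00 with tieghemelin, and 7.64 and 7.69 on the maslinic acid arrays. Its control arrays lay within 0.06 of each other, above all tieghemelin and maslinic acid arrays and between the minoxidil ones. The differences were -0.10, -0.47 and -0.64 (SE 0.47 each), with limma adjusted p of 0.939, 0.657 and 0.570. Mmp3, stromelysin, whose promoter held both a TATA box and an AP-1 core, read 7.78 and 8.66 in control, 8.58 and 8.81 with minoxidil, 7.75 and 8.49 with tieghemelin, and 7.93 and 8.60 on the maslinic acid arrays. Each treated group overlapped control, at differences of 0.47, -0.10 and 0.04 (SE 0.47 each), whereas both tieghemelin arrays were below both minoxidil arrays.

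Timp2, an inhibitor that also takes part in Mmp2 activation, was highest on control array 2. It read 8.51 and 9.67 in control, 8.38 and 8.71 with minoxidil, 8.57 and 8.84 with tieghemelin, and 9.25 and 8.47 on the maslinic acid arrays. Against both controls the differences were -0.55, -0.39 and -0.23 (SE 0.49 each), and against control array 2 alone -1.13 and -0.97, at the study's thresholds, and -0.81 (limma adjusted p of 0.299, 0.342 and 0.450). They were 0.03, 0.19 and 0.35 against control array 1 alone, with no call. Timp1, the inducible inhibitor, read 6.83 and 6.01 in control, 6.02 and 6.45 with minoxidil, 6.36 and 6.71 with tieghemelin, and 6.06 and 6.13 on the maslinic acid arrays, all below background. Mmp14, the membrane-bound activator of Mmp2, read 8.44 on control array 1 and 6.46 to 7.17 on the other 7.

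Pdgfrb, a receptor for platelet-derived growth factor on pericytes and fibroblasts, had the largest positive difference from control of any member. It read 7.74 and 8.74 in control, 9.32 and 8.96 with minoxidil, 8.43 and 8.74 with tieghemelin, and 8.55 and 8.91 on the maslinic acid arrays. Both minoxidil arrays were above all other arrays, and control array 1 was the lowest, just under background. The difference with minoxidil was 0.90 (SE 0.44, limma adjusted p = 0.443), and 0.40 (limma adjusted p = 0.701) without control array 1. Against control array 1 alone it was 1.39 (limma adjusted p = 0.0149), at the thresholds.

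Comparisons between treatments leave the control arrays out of the difference, although with all 8 arrays the control arrays still widen the shared spread. For tieghemelin against minoxidil, limma called 0 members at the study's thresholds (3.30% of all probe sets) and 0 at an adjusted p under 0.05 (0%). For maslinic acid against minoxidil it called 0 (3.60%) and 0 (0%), and for tieghemelin against maslinic acid 0 (0.306%) and 0 (0%). At an unadjusted p under 0.05 the counts were likewise 0 members in each, and 732, 800 and 68 probe sets. The median log2 difference over the members was -0.17, -0.14 and -0.06, against -0.03, -0.03 and 0.01 over all probe sets.

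Leaving out 1 control array, which gives the same result for either, narrowed the spread and called 0, 2 and 1 members at the thresholds (10.4%, 11.1% and 1.56% of all probe sets). The members were Dcn, higher with maslinic acid than with minoxidil, Fmod, lower there, and Sparc, lower with tieghemelin than with maslinic acid. For Dcn the difference was 1.17 (SE 0.41, limma adjusted p = 0.269), with an SE of 0.96 when all arrays were kept. Fmod was below background on both arrays of each of the 2 groups, so only its array values above stand. Sparc was at -0.89 (SE 0.40, limma adjusted p = 1.00), and its maslinic acid arrays were 0.93 apart.

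**Figure D4:**
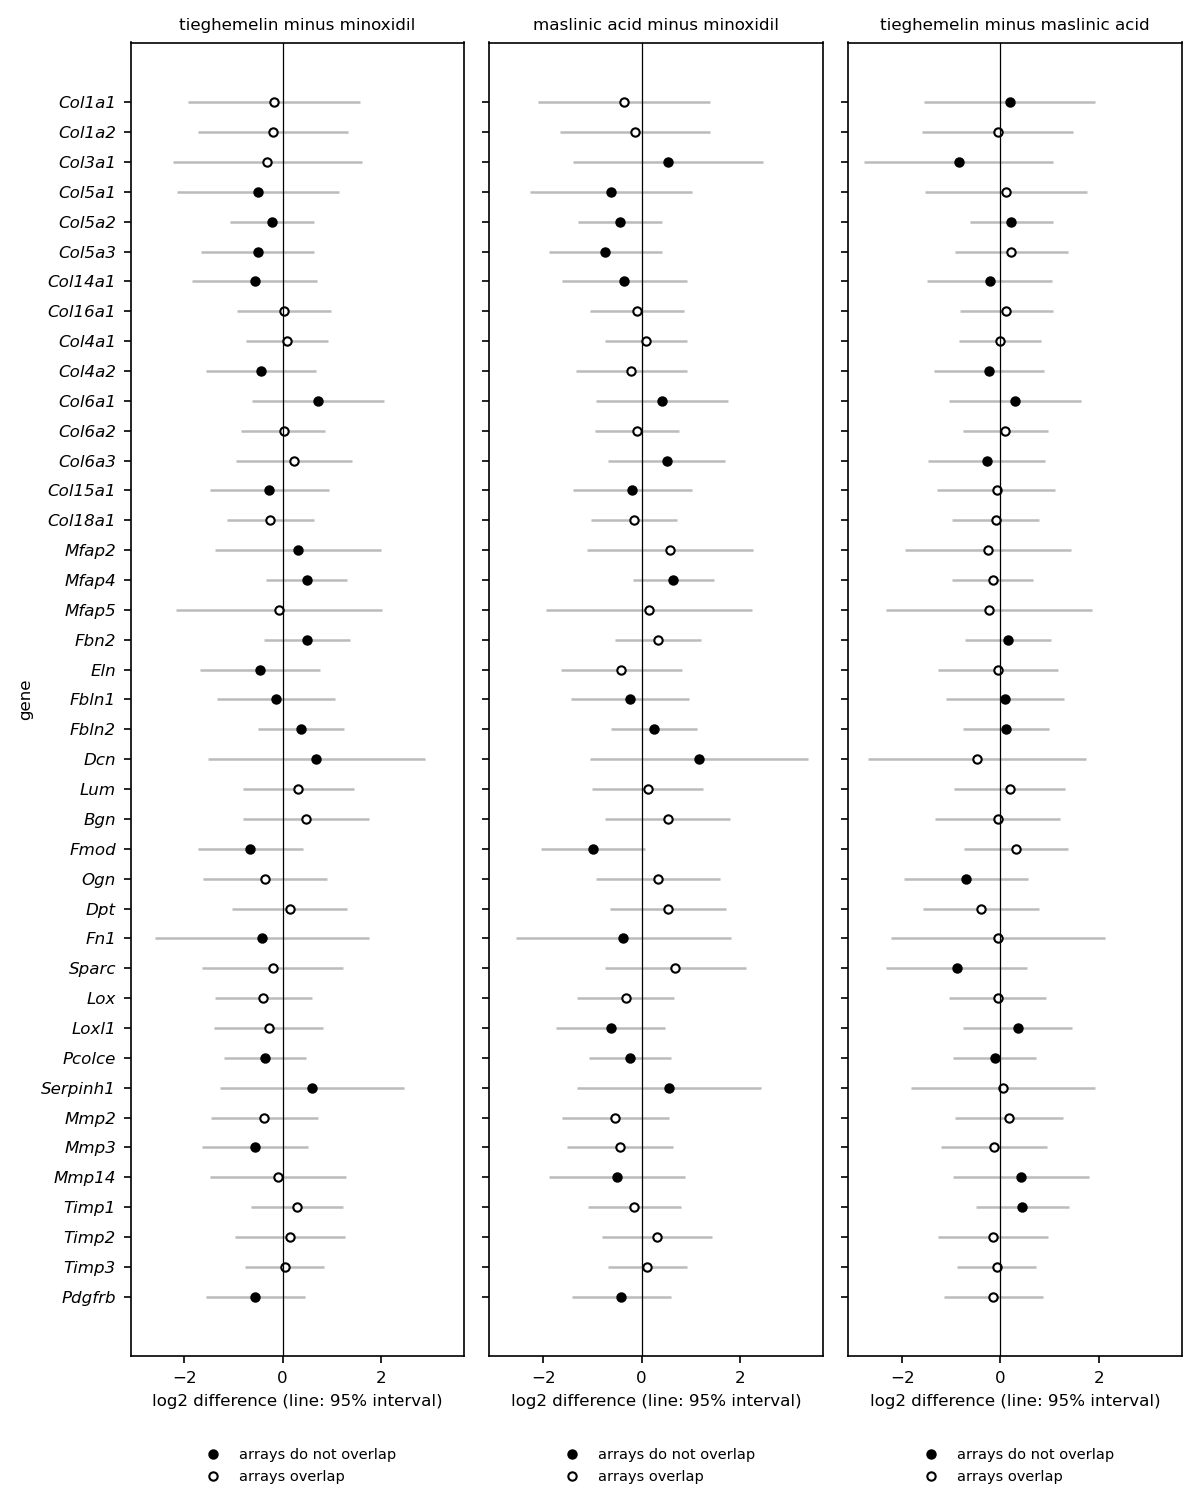
Log2 difference of each member between treatments, with 95% intervals from the limma fit of all 8 arrays. Differences between tieghemelin and maslinic acid run from -0.89 (Sparc) to 0.44, and the interval lies within 1 log2 unit of 0 for 4, 3 and 7 members in the 3 comparisons.

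The arrays of tieghemelin and minoxidil did not overlap for 20 members, 7 higher (20.3% of all probe sets) and 13 lower (23.6%) with tieghemelin. For maslinic acid against minoxidil they were 7 higher (20.1%) and 12 lower (23.5%), and for tieghemelin against maslinic acid 9 higher (15.7%) and 7 lower (14.9%). Lower with tieghemelin, and above background on all 4 arrays compared, were among others Col5a2, Col5a3, Eln, Pcolce and Pdgfrb. By the same rule and against the same minoxidil arrays, Col5a2, Col14a1, Col15a1, Pcolce and Pdgfrb were lower with maslinic acid. The plant compounds differed from each other by less than 1 log2 unit in all 41 members, but the 95% interval lay within 1 log2 unit of 0 for only 7, Col4a1, Col6a2, Col18a1, Mfap4, Fbln2, Pcolce and Timp3, the last below background in both groups. For Col3a1 the interval ran from -2.79 to 1.08 and for Dcn from -2.70 to 1.74, so these data do not show that the compounds act alike.

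Over all probe sets, 6.98%, 7.02% and 6.39% were called higher than control with minoxidil, tieghemelin and maslinic acid, and 4.29%, 4.73% and 4.45% lower, and the lists below are to be read against these shares. Among 23 measured collagen biosynthesis and processing enzymes outside the list, 2 were called higher and 2 lower than control with minoxidil, 0 and 2 with tieghemelin, 2 and 2 with maslinic acid. Tll1, a tolloid-like procollagen proteinase, was at 1.87 with minoxidil, with array values of 6.53 and 7.96 in control and 8.92 and 9.31 with minoxidil, and was still called without control array 1 (1.15). Mia3, which helps procollagen leave the endoplasmic reticulum, was called higher with minoxidil (at least 1.13-fold) and maslinic acid (at least 1.43-fold), both calls lost without control array 1. It read 5.39 and 7.01 in control, below background, and 7.07 to 8.65 on the 6 treated arrays. P3h1, a collagen prolyl hydroxylase, was called lower in all 3, at least 1.54-fold, 2.06-fold and 2.03-fold, but only control array 1 (9.06) was above background. Colgalt1, which adds galactose to collagen, was called lower in all 3, at -1.20, -1.46 and -1.30. It read 8.85 and 8.30 in control against 6.95 to 7.59 on the 6 treated arrays, and without control array 1 it was still called, at -0.93, -1.18 and -1.03.

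Among 39 other extracellular matrix genes, 1, 2 and 3 were called higher and 4, 4 and 2 lower in the 3 comparisons with control. Has2, a hyaluronan synthase, was called higher in all 3, by at least 1.21-fold with minoxidil, 2.07-fold with tieghemelin and 1.41-fold with maslinic acid. It read 5.83 and 7.06 in control, both below background, against 7.87 and 8.03 with minoxidil, 9.0 and 8.47 with tieghemelin, and 7.59 and 8.76 on the maslinic acid arrays. Against control array 2 alone it was called with tieghemelin (1.67) and maslinic acid (1.11) but not with minoxidil (0.89). Vcan, the large hyaluronan-binding proteoglycan versican, was called higher with tieghemelin (1.32) and maslinic acid (1.21), reading 7.44 and 8.19 in control and 8.67 to 9.43 on those 4 arrays. Tnxb, tenascin-X, was called lower with minoxidil (-1.47) and tieghemelin (-1.55), reading 10.64 on control array 1 and 8.76 on control array 2. Col11a1, a chain of a minor fibrillar collagen, was called lower with minoxidil (at least 1.43-fold), and Ltbp2, of the latent TGF-beta binding protein family, with tieghemelin (at least 1.16-fold) and maslinic acid (at least 1.14-fold). The calls of Vcan (0.94 and 0.83), Tnxb (-0.52 and -0.61), Col11a1 and Ltbp2 were all lost without control array 1.

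Of 20 other matrix degrading enzymes and inhibitors, 0, 1 and 1 were called higher and 1, 0 and 0 lower. The gene called higher was Mmp1a, a collagenase, at least 1.25-fold with tieghemelin and 1.38-fold with maslinic acid. It read 6.57 and 6.75 in control, both below background, and 7.77 to 8.24 on those 4 arrays, and both calls held without control array 1. The gene called lower was Adamts4, an aggrecanase, at least 1.59-fold with minoxidil, where control array 1 read 9.36 and control array 2 read 6.82, a call lost without control array 1. Of 22 TGF-beta pathway genes, which include inducers and targets of matrix synthesis, 0, 1 and 2 were called higher and 1 was called lower in each comparison. Ccn2, a TGF-beta target, was called higher with tieghemelin (1.54) and maslinic acid (1.81), from 6.32 and 7.77 in control to 8.54 to 9.04 on those 4 arrays. Without control array 1 the call with tieghemelin was lost (0.82) and that with maslinic acid held (1.09). Ski, a repressor of TGF-beta signalling, was called higher with maslinic acid (at least 1.43-fold), from 7.24 and 7.06 in control to 8.02 and 8.37, with or without control array 1. It was also called higher there than with minoxidil, whose arrays read 7.48 and 7.22, both below background. The gene called lower was Smad7, an inhibitor of the pathway, which was below background on all arrays.

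**Figure D5:**
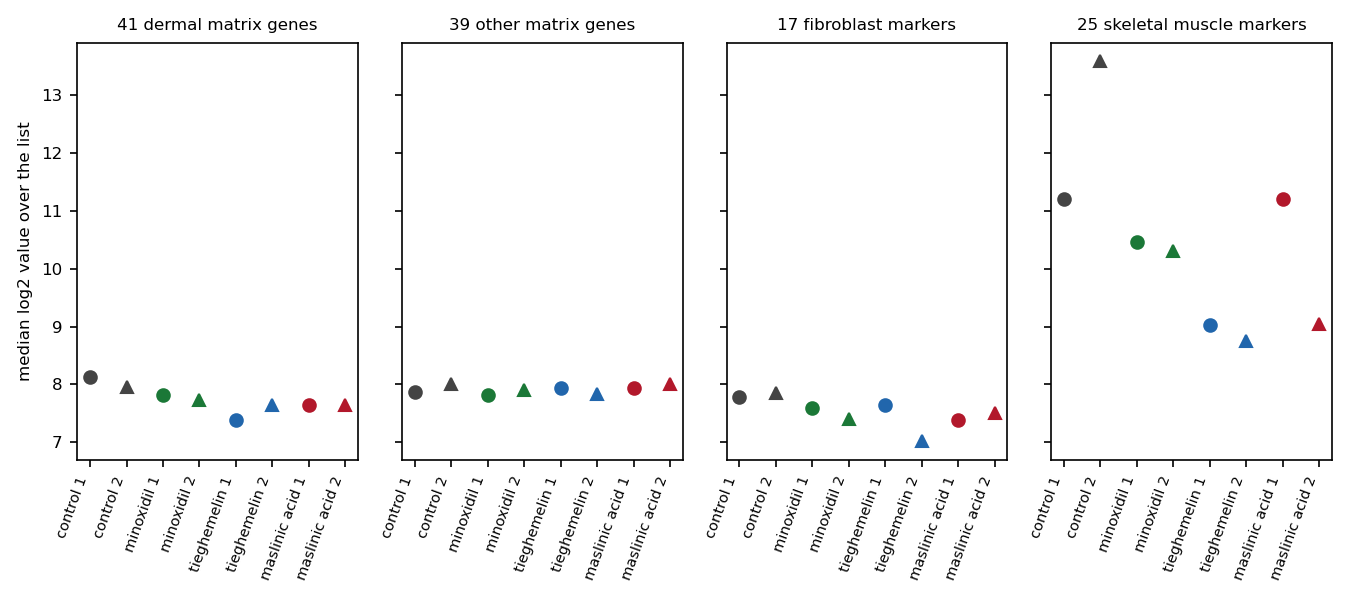
Median log2 level on each of the 8 arrays over the 41 members, 39 other matrix genes, 17 fibroblast markers and 25 skeletal muscle markers, coloured by group, with circles for array 1 and triangles for array 2 of a group. The member median lies between 7.39 and 8.13, and the muscle median runs from 8.75 on tieghemelin array 2 to 13.58 on control array 2.

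Markers of other cell types of skin had medians closer to 0 than the muscle markers. The 17 fibroblast markers had medians of -0.19, -0.09 and -0.20 against control, with 1 called lower in each comparison. Below control lay 14, 10 and 11 of the 17, against 46.7%, 47.6% and 47.3% of all probe sets. Against control array 2 alone 13, 10 and 12 did, at medians of -0.14, -0.24 and -0.27. Against control array 1 alone 11, 9 and 10 did, at medians of -0.33, -0.05 and -0.36. Over the 3 comparisons, each with both control arrays and with either alone, the medians of 13 adipocyte markers ran from -0.36 to -0.01 and those of 10 macrophage markers from 0.14 to 0.74. The medians of the other lists lay on both sides of 0. They ran from -0.29 to 0.29 for 11 endothelial markers, -0.23 to 0.26 for 10 pericyte and smooth muscle markers, and -0.21 to 0.51 for 5 Schwann cell markers. For 10 basal keratinocyte markers they ran from -0.89 to 0.24, and for 11 differentiated keratinocyte markers from -0.57 to 0.62. The part of these cell types in the members' differences was not tested.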

How the data were processed

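Affymetrix Clariom S Mouse arrays were scanned and normalised by the authors in Transcriptome Analysis Console 4.0.1, per the series' design text; the submitters' processing notes also name Affymetrix Expression Console and RMA. The deposited table holds 1 value a probe set and array, taken as log2 from its range (3.69 to 19.93). Groups came from the labels. Control probe sets (6640) were left out. All other probe sets were fitted with limma 3.58.1 in R 4.3.3 (lmFit, eBayes, 4 groups, 4 residual degrees of freedom) for 6 comparisons, and Benjamini-Hochberg adjustment ran over 22206 probe sets. The scripts were tested on simulated data. With 2 arrays against 2, an exact permutation test could not go below p = 0.33, so none is given for single genes. Array number and signal over background limit the precision.

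The members and lists were chosen with earlier results of these data known. Array values were given for the leading genes of each class and for members at the study's thresholds with all arrays or without control array 1. Of each list of other matrix, enzyme and TGF-beta genes, the genes at the thresholds with the largest differences were named, 3 a comparison at most. Colgalt1 with minoxidil, Postn and Fabp4 were named outside this rule, as was 1 of Has2, Vcan, Tnxb and Ltbp2 with tieghemelin. Some lists share a gene (Thbs1, Fap, Col17a1). All 41 members matched RefSeq by gene ID. Alternatives were other filters, normalizations, scalings, variance settings, array weights, a replicate block, only the groups compared and each array left out.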

Additional observations from a re-analysis of the deposited data

How the results depend on the processing

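No array number marks a shared batch in the labels, and deviations of same-numbered arrays from their group means correlated at -0.17 to 0.09, so the numbers were not taken as pairs. With the replicate number as a block the members at the thresholds were 2, 2 and 3 for minoxidil, tieghemelin and maslinic acid against control, and no other count or median changed. Of 288 recomputed counts and medians, 245 kept to within 1.5 times the count or within the arrays' spread (SD 0.11 for medians). Much of this was fixed in advance. The medians did not move with the variance setting, array weights, the block, only the 2 groups compared, or an array outside the comparison left out. Counts at an adjusted p under 0.05 were 0 in every setting but that without control array 2. The 245 is therefore not a measure of robustness. With only probe sets above the median level, the members called against control were 0 in each comparison (18 of the 41 members were left). The member medians were then -0.12 for tieghemelin, 0.08 for maslinic acid and 0.11 for maslinic acid against minoxidil. Over all probe sets kept by this filter they were 0.29, 0.30 and -0.02, so the members still lay below the rest against control. With only probe sets above background on at least 2 arrays, 1 member was called with minoxidil. The member median with maslinic acid was then -0.19, against 0.14 over all probe sets kept. After a shift to a common median 4 were called with minoxidil. With only the 2 groups compared, the counts against control were 0, 0 and 1, and 2 for maslinic acid against minoxidil. Array weights called 2 there and 1 for tieghemelin against maslinic acid. Against control they kept 2 calls in each comparison, but Serpinh1 took the place of Fmod with tieghemelin and of Col5a3 with maslinic acid. What moved these values was not tested. Leaving out each array in turn gave 1 to 17, 0 to 18 and 0 to 19 members at the thresholds against control, and 0 to 13, 0 to 15 and 0 to 16 at an adjusted p under 0.05. The medians ran from -0.40 to -0.13, -0.47 to -0.18 and -0.41 to -0.11. The highest counts all came without control array 2. Between treatments the counts at the thresholds were 0 to 1 (tieghemelin against minoxidil), 0 to 2 and 0 to 1, and the medians -0.25 to 0.05, -0.14 to -0.04 and -0.08 to 0.09. Besides the control arrays, single treated arrays ended calls: Col6a1 without either minoxidil array, Col14a1 without any 1 of the 6 treated arrays, Serpinh1 without minoxidil array 1, Col5a3 and Fmod (maslinic acid) without maslinic acid array 1, and Fmod (tieghemelin) without tieghemelin array 1.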
